A study of Mus musculus with 2 samples.

Results

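ON cone bipolar cells carry the signal of cone photoreceptors for light increments to the inner retina. They were examined in mouse retinas injected with lipopolysaccharide (LPS), and 349 of the 12936 cells kept met the selection. Members were chosen on measured counts: at least 3 unique molecular identifiers (UMIs, each counting 1 captured mRNA) of Trpm1, Grm6 and Isl1 together and more than of Grik1, at most 1 UMI of the rod bipolar genes Prkca, Car8, Sebox and Vstm2b, at most 1 UMI of Gad1, Gad2, Slc6a9 and Slc17a6, under 0.1% of UMIs from Rlbp1, Glul, Slc1a3, Dkk3 and Crym, and at least 2000 UMIs, 500 genes and under 25% mitochondrial UMIs. The knockout library gave 202 members of 4662 kept cells and the control library 147 of 8274. The levels of those genes among members are therefore a description and not a result.

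There was 1 library per group, each from 6 pooled retinas. The knockout group had the genotype GLAST-CreER; Atg5fl/fl and received LPS (0.5 µg per eye) and 4-hydroxy-tamoxifen. The control group had the genotype Atg5fl/fl and received the same dose of LPS, with neither Cre nor 4-hydroxy-tamoxifen in its labels, so that genotype, Cre and drug cannot be told apart. GLAST-CreER drives recombination in Müller glia, so bipolar neurons of the knockout group are neighbours of the targeted cells and not the targeted cells, and both groups carry the floxed Atg5 allele and the LPS exposure. Every comparison between groups is between 2 libraries, with no replicate check and no test. The intervals given are 95% intervals that cover counting error only.

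In darkness, photoreceptors release glutamate onto the dendrites of ON bipolar cells. There the receptor mGluR6 (Grm6) activates the G protein Go, which keeps the cation channel TRPM1 closed. Light lowers glutamate release, Go is switched off by an RGS complex, TRPM1 opens and the cell depolarises. Cone-driven ON cells fall into several types that differ in cadherins, contactins, neuropeptides and channels, whereas rod-driven ON cells are marked by protein kinase C alpha (Prkca). Interferons, which bacterial products such as LPS induce through Toll-like receptors, bind receptors that act through a complex holding STAT2 and IRF9, which recognises a repeat of GAAA in promoters.

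The gene list with the highest median knockout over control ratio in these cells was the type I interferon response, and the promoters of its members with the largest ratios and a promoter entry are therefore shown first. They come from RefSeq on GRCm38.p6, run 5′ to 3′ on the gene's strand, and span 250 bases before to 50 after the gene start. Capitals mark matches to GAAANNGAAA or, on the other strand, TTTCNNTTTC, where overlapping matches merge. Ddx60 (chr8:61927837-61928136, plus strand) held 2 matches, Isg15 (chr4:156200769-156201068, minus strand) held 3 overlapping matches, and Ifit1 (chr19:34640639-34640938, plus strand) held 2.
Ddx60: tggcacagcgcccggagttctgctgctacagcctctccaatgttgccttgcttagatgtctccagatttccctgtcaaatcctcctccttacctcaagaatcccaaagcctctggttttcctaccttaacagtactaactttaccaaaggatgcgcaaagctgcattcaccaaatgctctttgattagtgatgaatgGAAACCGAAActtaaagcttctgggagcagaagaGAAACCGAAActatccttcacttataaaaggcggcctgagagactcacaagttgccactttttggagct
Isg15: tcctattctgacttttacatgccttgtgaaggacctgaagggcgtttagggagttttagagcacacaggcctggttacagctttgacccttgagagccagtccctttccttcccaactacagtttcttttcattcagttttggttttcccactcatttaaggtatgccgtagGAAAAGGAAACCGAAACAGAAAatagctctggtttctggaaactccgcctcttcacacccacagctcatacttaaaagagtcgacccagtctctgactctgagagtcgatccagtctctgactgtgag
Ifit1: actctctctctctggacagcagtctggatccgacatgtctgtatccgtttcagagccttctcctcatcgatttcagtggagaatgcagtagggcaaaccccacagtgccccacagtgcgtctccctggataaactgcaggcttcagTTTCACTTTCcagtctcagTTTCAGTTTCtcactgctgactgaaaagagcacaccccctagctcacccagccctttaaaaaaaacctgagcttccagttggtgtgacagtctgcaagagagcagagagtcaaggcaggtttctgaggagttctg
The motif was present in 3.44% of all 32851 promoter windows of this length, and in 224 of the 6421 tested genes with a promoter entry (3.49%). Among tested genes of the interferon list with a promoter entry it was present in 8 of 14 (57.1%), and among those of the antigen presentation list in 7 of 18 (38.9%). No promoter of the 11 mGluR6 cascade genes with an entry held these letters, which says little about so few promoters at the share over all tested genes. Among ribbon synapse and release genes 3 of 28 (10.7%) held them, and among voltage-gated and leak channels 2 of 18 (11.1%). A match is a description of the letters and neither a binding site nor a cause.

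The 202 knockout members held 1776900 UMIs with a median of 8803 per cell, and the 147 control members 1228785 UMIs with a median of 7800. They made up 4.33% (3.77 to 4.96) of kept knockout cells and 1.78% (1.503 to 2.08) of kept control cells. The kept cells of the 2 libraries differed in depth, with median UMIs of 6808 in the knockout library and 1396 in the control library. Of kept cells with at least 2000 UMIs, members were 5.74% (4.996 to 6.56) of 3518 knockout cells and 4.95% (4.20 to 5.80) of 2967 control cells. Of the 3 bipolar classes together they were 27.9% (24.7 to 31.4) of 723 knockout cells and 31.3% (27.2 to 35.8) of 469 control cells. The gap between the libraries thus appeared when all kept cells were counted, whereas the intervals overlapped with either of the other denominators.

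The label was checked against 6 given markers, of which 3 (Gng13, Cntn5 and Cdh9) had no part in the selection. After each cell was thinned to 2000 UMIs, Gng13, the gamma subunit of the ON bipolar G protein, was seen in 80.7% of knockout and 74.1% of control members. Cntn5, a contactin of axonal adhesion, was seen in 54.5% of knockout and 70.7% of control members. Cdh9, a cadherin, was seen in 48.5% of knockout and 61.9% of control members. In rods thinned alike these genes were seen in at most 7.19%, 1.80% and 0.641% of cells, so the shares in members lay above those in rods. Gng13 was also seen in 95.2% of knockout and 89.1% of control rod bipolar cells and in 52.1% of knockout and 45.3% of control OFF cone bipolar cells, so it does not set members apart from the other bipolar classes. Cdh9 was seen in 16.4% of knockout and 12.8% of control OFF cone bipolar cells. Cntn5 and Cdh9, seen more often in members than in either other bipolar class, did not mark all members, and 15 knockout and 8 control members had no UMI of Grm6 or of Isl1.

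At the edge of the selection, 7 knockout and 7 control members had exactly 3 UMIs of Trpm1, Grm6 and Isl1, with a Gng13 level of 359 counts per 1000000 UMIs (CPM) in knockout and 340 CPM in control cells. Just outside it were 9 knockout and 8 control cells with 2 such UMIs, whose Gng13 level was 76.4 CPM in knockout and 166 CPM in control cells. On the rod bipolar side, 59 knockout and 35 control members had 1 UMI of a rod bipolar gene, and 22 knockout and 16 control cells with 2 such UMIs were left out. The wider set of ON cells left out for at least 2 rod bipolar UMIs, yet with at most 1 Prkca UMI, had 72 knockout and 27 control cells. Their level of the neuropeptide gene Cck was 1116 CPM in knockout and 1154 CPM in control cells, against 9.27 CPM in knockout and 3.42 CPM in control rod bipolar cells with at least 3 Prkca UMIs. The selection therefore left out cells rich in Cck, and shares of types among members describe the members alone.

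Values of other cell types' markers touch every comparison that follows. The 11 rod markers summed to 540 CPM in knockout members and 1864 CPM in control members, a ratio of 0.290 (0.269 to 0.313). The 8 cone markers summed to 271 CPM in knockout and 521 CPM in control members. The 9 Müller glia markers summed to 543 CPM in knockout and 359 CPM in control members, with Rlbp1 at 0, and 5 of these genes were part of the selection. The 5 horizontal cell markers summed to 245 CPM in knockout and 81.4 CPM in control members, and 1 knockout member held 47.2% of these knockout UMIs. The 10 neutrophil markers summed to 124 CPM in knockout and 116 CPM in control members, with Stfa2 at 0. The 10 markers of monocytes, macrophages and microglia summed to 9.57 CPM in knockout and 23.6 CPM in control members, with C1qa, C1qc and Tmem119 at 0. The 5 OFF cone bipolar markers summed to 497 CPM in knockout and 369 CPM in control members, a ratio of 1.35 (1.20 to 1.51), and the 6 GABAergic amacrine markers to 47.8 CPM in knockout and 24.4 CPM in control members, a ratio of 1.96 (1.28 to 3.08). The rod marker sum was thus lower, and the Müller, horizontal, OFF cone bipolar and GABAergic amacrine marker sums higher, in the knockout members. The OFF cone bipolar sum is not a measure of RNA from OFF cells alone. Its gene Grik1 was part of the selection. Pcdh17 was a leading gene of cluster 2 of the members, described further below, at 498 CPM against 43.4 CPM in the other members. Vsx1 stood at 348 CPM in cluster 2 and 303 CPM in cluster 3. Onecut2, a horizontal marker, stood at 111 CPM in cluster 2 and 170 CPM in cluster 5. The part of other cells' RNA in the gene results was not tested, except where a value without the cells concerned is given.

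ON cone bipolar cells were set against rod bipolar cells (229 knockout and 174 control cells) and OFF cone bipolar cells (292 knockout and 148 control cells), each class selected by its own genes. Reln, which encodes the secreted glycoprotein reelin, had 862 CPM in knockout and 949 CPM in control ON cone bipolar cells, against 26.1 and 6.26 CPM in rod bipolar and 14.6 and 13.1 CPM in OFF cone bipolar cells of the knockout and control libraries. Il1rapl2, a synaptic receptor of the interleukin-1 receptor family, had 1321 CPM in knockout and 2008 CPM in control ON cone bipolar cells, and at most 43.4 CPM in either other class. Hs3st4, a heparan sulfate sulfotransferase, had 910.0 CPM in knockout and 1167 CPM in control ON cone bipolar cells, and at most 42.1 CPM in the other classes. Summed over members, these genes separated the classes by over an order of magnitude in both libraries. They were not high in all clusters of the members, which are described further below. In clusters 3, 5, 6 and 7, Il1rapl2 had at most 10.2 CPM and Hs3st4 at most 11.5 CPM. Reln had 0 CPM in cluster 6 and 31.1 CPM in cluster 7.

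Several of the other genes with the largest excess over both classes encode signalling molecules. Cck had 468 CPM in knockout and 345 CPM in control ON cone bipolar cells, against at most 17.5 CPM in the rod bipolar and OFF cone bipolar cells, though the ON cells left out by the selection had more of it. Tacr1, the neurokinin-1 receptor, had 30.4 CPM in knockout and 43.9 CPM in control ON cone bipolar cells, against at most 0.929 CPM. Htr3a, a serotonin-gated channel, had 71.5 CPM in knockout and 83.8 CPM in control ON cone bipolar cells, against at most 3.42 CPM. Grin3a, an NMDA receptor subunit, had 58.5 CPM in knockout and 68.4 CPM in control ON cone bipolar cells, against at most 4.56 CPM. A neuropeptide and 3 receptor genes were thus higher in members than in both other classes, but each was high in some members only. Cck stood at 2028 CPM in cluster 3 of the members and at most 61.1 CPM in the other clusters, and Tacr1 at 123 CPM in cluster 2 and at most 4.98 CPM in the others. The set was completed by the matrix genes Smoc2, Fn1 and Fndc1, the transcriptional co-regulator Lmo3, and Lhfp, whose smaller ratio of the 2 libraries was between 11.0 and 62.8. In the opposite direction, Pcp4, a regulator of calmodulin, had 145 CPM in knockout and 93.6 CPM in control ON cone bipolar cells. Its level was 3624 and 3090 CPM in rod bipolar cells and 1179 and 1092 CPM in OFF cone bipolar cells of the knockout and control libraries. Nebl, Phyhipl, Gstm5, the contactin gene Cntn4 and the glycine receptor gene Glra1 were also lower than in both classes, by 2.93 to 4.57-fold in the library with the smaller difference.

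**Figure D1:**
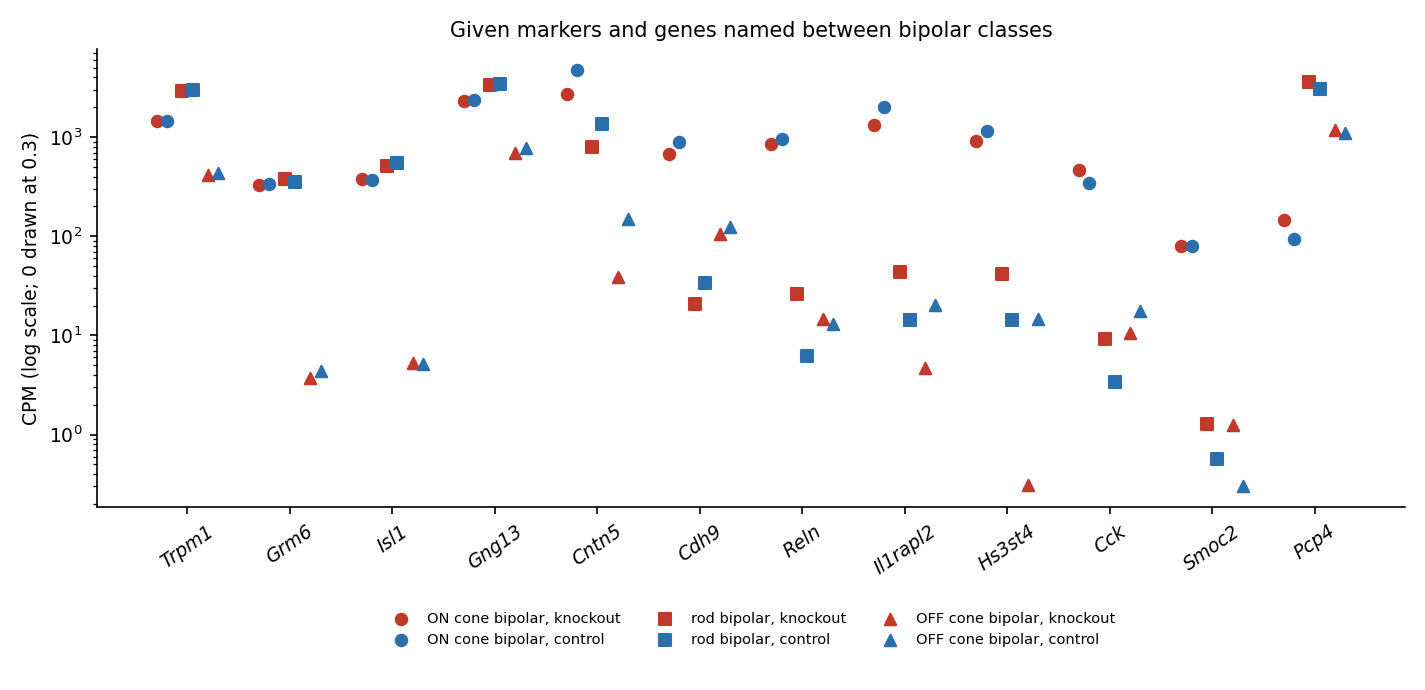
Levels of the 6 given markers, of which Trpm1, Grm6 and Isl1 chose the members, and of 6 genes that separate ON cone bipolar from rod and OFF cone bipolar cells, in CPM on a log axis, with 1 point per class and library and no error bars because each point is 1 library. Summed over members, Reln, Il1rapl2, Hs3st4, Cck and Smoc2 are high in ON cone bipolar cells (circles) of both libraries, though each is low in some clusters of members. Pcp4 is low in ON cone bipolar cells, at 145 CPM in the knockout and 93.6 CPM in the control library.

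For knockout against control members, genes with at least 50 UMIs over both libraries were tested against a fold of 1.5, which gave 8103 genes. Of these, 581 (7.17%) were at least 1.5-fold higher and 409 (5.05%) at least 1.5-fold lower in the knockout members, and the median log2 ratio was 0.02. These shares are the background for each list, and counts over genes that passed the UMI minimum describe those genes alone. The lists spread from the type I interferon response, with 12 of 19 genes past the fold upwards, to the nuclear genes of oxidative phosphorylation, with 0 of 75 past the fold in either direction.

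**Figure D2:**
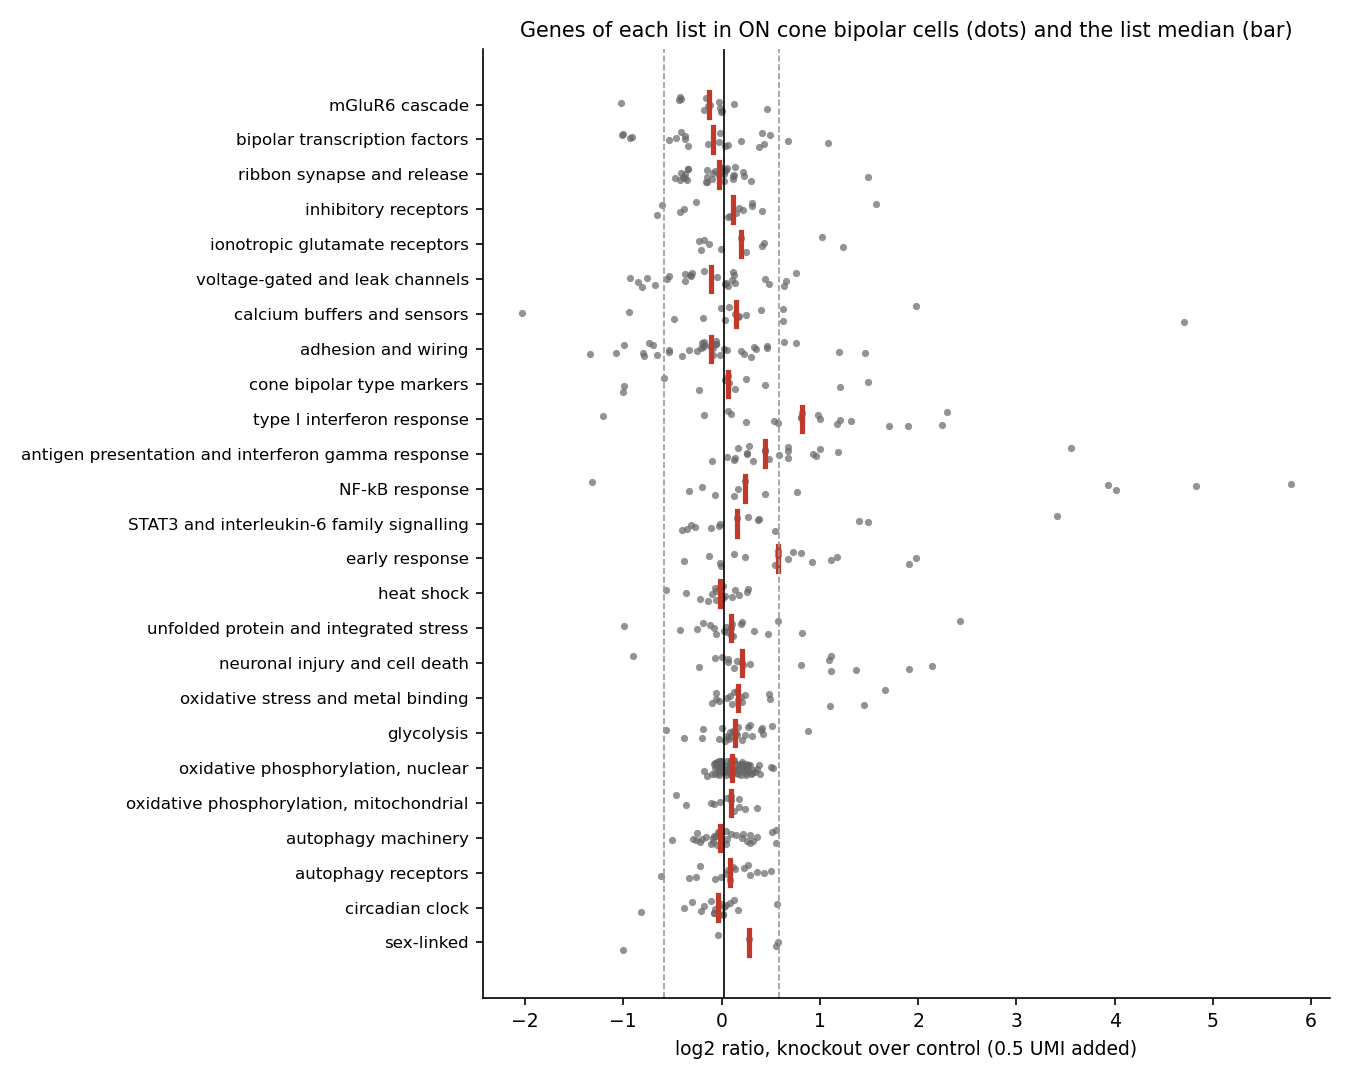
Log2 ratio of CPM, knockout over control, for each gene with at least 50 UMIs (grey dots) in 25 lists in ON cone bipolar cells, with the median of each list as a red bar. The black line is the median of all 8103 genes (0.02) and dashed lines mark 1.5-fold; the type I interferon list has the highest median, 0.82, while the autophagy machinery (-0.01) lies near the median of all genes.

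Summed over members, the cascade that makes an ON cell was close to equal in the 2 libraries. Without Trpm1 and Grm6, which the selection used, 0 of 12 tested genes were past the fold upwards and 1 downwards, with a median log2 ratio of -0.15. Gng13, which was not used in the selection, had 2325 CPM in knockout and 2346 CPM in control members, a ratio of 0.991 (0.945 to 1.04). By cluster of the members its ratio was 0.778 (0.711 to 0.851) in cluster 3, 3.50 (2.26 to 5.63) in cluster 4 and 2.86 (1.44 to 6.47) in cluster 6. In each of the other clusters the interval held 1. Gpr179, the scaffold that holds the RGS complex near TRPM1, had 266 CPM in knockout and 269 CPM in control members. Gnao1, the alpha subunit of Go, had 682 CPM in knockout and 773 CPM in control members. Summed over members, these 3 genes differed by little between the libraries.

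Gnb3, the beta subunit of the same G protein, had 1880 CPM in knockout and 1366 CPM in control members, a ratio of 1.38 (1.30 to 1.46), and was higher in 6 of 7 clusters of the members. The rod bipolar ratio of Gnb3 was 1.24 and its OFF cone bipolar ratio 1.17. Pcp2, a modulator of Go, had 679 CPM in knockout and 903 CPM in control members, and Nyx, which encodes nyctalopin of the dendritic tip, had 58.0 CPM in knockout and 78.1 CPM in control members. Rgs9bp, a membrane anchor of RGS proteins, was the gene past the fold, at 19.1 CPM (34 UMIs) in knockout and 39.1 CPM (48 UMIs) in control members. Rgs9bp is also expressed in photoreceptors, whose markers were lower in the knockout members, and the part of rod RNA in its ratio of 0.490 (0.306 to 0.776) was not tested.

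Of 21 transcription factor genes of bipolar cells, leaving out the selection gene Isl1, 2 were past the fold upwards and 4 downwards. Otx2, which bipolar cells share with photoreceptors, had 289.8 CPM in knockout and 368 CPM in control members. The 4 lower genes were Sox6, Nfia, Nfib and Meis2. Nfia had 597 CPM in knockout and 1143 CPM in control members, Sox6 had 405 and 814 CPM, and Meis2 had 304 and 613 CPM in the knockout and control libraries. Sox6 was high in 2 of the 7 clusters of members, and with the mix of clusters held equal the ratios of Sox6, Nfia and Meis2 were 0.748, 0.838 and 0.843. With the mix held equal, 1 gene of the list was past the fold upwards and 0 downwards.

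The output synapse was close to even between the libraries. Of 34 ribbon synapse and release genes, 1 was past the fold upwards and 0 downwards, with a median log2 ratio of -0.02. Ctbp2, whose RIBEYE product builds the ribbon, had 204 CPM in knockout and 227 CPM in control members. Cacna1f, the calcium channel that triggers release, had 112 CPM in knockout and 109.9 CPM in control members. Cplx3, a complexin of ribbon synapses, had 639 CPM in knockout and 628 CPM in control members. The 1 gene past the fold was Syt2, a calcium sensor of release found in some cone bipolar types, at 62.5 CPM in knockout and 21.97 CPM in control members, a ratio of 2.84 (1.85 to 4.51) that was 2.15 with the cluster mix held equal.

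Receptors for inhibition from amacrine cells showed 1 of 14 genes past the fold upwards and 2 downwards. Gabrr2, a GABA-C receptor subunit of bipolar axon terminals, had 841 CPM in knockout and 791 CPM in control members. The gene past the fold upwards was Glra1, a glycine receptor subunit, at 61.3 CPM in knockout and 20.3 CPM in control members, and 1 knockout cell held 23.9% of its knockout UMIs. The Glra1 ratio of 3.02 was 1.58 with the cluster mix held equal, and without the 5 cells with most UMIs of each gene 0 genes of the list were past the fold downwards. Among 11 ionotropic glutamate receptor genes 2 were past the fold upwards: Grik1, which was part of the selection, and its auxiliary subunit gene Neto1, with 48.0% of its knockout UMIs in 1 cell. Without Grik1, 1 of 10 genes was past the fold upwards, with a median log2 ratio of 0.10. With Grik1 counted but clusters 4 and 6 left out, 1 of 9 genes was past it and the median was -0.05. Of 12 type marker genes of cone bipolar cells, 2 were past the fold upwards, Syt2 and Chrm2, and 2 downwards, Sox6 and Lrrtm1.

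Voltage-gated and leak channels had 3 of 26 genes past the fold upwards and 5 downwards. Cacna1g, a T-type calcium channel, had 63.6 CPM in knockout and 37.4 CPM in control members, a ratio of 1.70 (1.20 to 2.45). Kcnma1, the large-conductance calcium-activated potassium channel, had 2082 CPM in knockout and 2015 CPM in control members. The direction therefore differed from channel to channel, and with the cluster mix held equal 1 gene was past the fold upwards and 2 downwards.

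Of 38 adhesion and wiring genes, 4 were past the fold upwards and 8 downwards. Cntn5 had 2735 CPM in knockout and 4753 CPM in control members, a ratio of 0.575, which moved to 0.808 with the cluster mix held equal. It was higher in 3 of 6 clusters, but clusters 5 and 6 among them held few of its UMIs, 22 and 10 in knockout and 1 and 3 in control cells. In cluster 7 its ratio was 2.70. In clusters 1, 3 and 4, which held most Cntn5 UMIs, the ratios were 0.795, 0.886 and 0.554. Cdh9 had 670.3 CPM in knockout and 885 CPM in control members, and its ratio was 0.875 with the mix held equal. It was lower in all 6 clusters with at least 10 UMIs, but by little in some. In clusters 1 and 4 the ratios were 0.985 (0.865 to 1.12) and 0.915 (0.708 to 1.18), with intervals that held 1. Lsamp, a limbic system adhesion protein, had 2845 CPM in knockout and 1834 CPM in control members, a ratio of 1.55 (1.48 to 1.63), and 1.30 with the mix held equal. Cntn4 had 132 CPM in knockout and 333 CPM in control members, the lowest ratio of the list at 0.396 (0.335 to 0.466), and 0.610 with the mix held equal. With the mix held equal, 1 of the 38 genes was past the fold upwards and 4 downwards. In counts summed over members, the mix of types and the level per cell cannot be told apart.

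Of 16 calcium buffer and sensor genes, 4 were past the fold upwards and 2 downwards. Cabp5, a calcium-binding protein of cone and rod bipolar cells, had 330.4 CPM in knockout and 462 CPM in control members, a ratio of 0.715, and 1.17 with the cluster mix held equal. Scgn, which encodes secretagogin, had 248 CPM in knockout and 282 CPM in control members. Camk2a, a kinase of plasticity, had 27.0 CPM (48 UMIs) in knockout and 6.51 CPM (8 UMIs) in control members, a ratio of 4.15 (1.95 to 10.2). Rcvrn, the photoreceptor gene of recoverin, had the lowest ratio of the list, 0.240 (0.130 to 0.424), beside the lower sum of rod markers. The largest ratio, of Calb1, rested on 1 knockout cell with 94.6% of its UMIs, and 2 genes were past the fold upwards when the top 5 cells of each gene or clusters 4 and 6 were left out.

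Members were clustered on 157 identity genes that left out the response lists, which gave 7 clusters. They are described by number and leading genes and were given no type names. Cluster 1 was led by Sox6, Htr3a and Cabp5 and held 39 knockout and 43 control cells. Cluster 2 was led by Chrm3, Sdk1 and Igfn1 and held 54 knockout and 28 control cells, and cluster 3 by Cck, Ntng1 and Cdh8 with 46 knockout and 28 control cells. Cluster 5, led by Lrp1b and Pcdh11x, held 23 knockout and 9 control cells. Cluster 6, led by Galntl6 and Slit2 with Glra1, Neto1 and the OFF cone bipolar gene Tacr3 among its top genes, held 9 knockout and 5 control cells. Its Grm6 and Isl1 levels were 9.20 CPM each, against 282 to 601 CPM and 265 to 544 CPM in clusters 1 to 5. Its Grik1 level, 570 CPM, was the highest of the 7 clusters. The name ON cone bipolar is therefore not borne out for cluster 6. Grm6 was also low in cluster 7, at 15.6 CPM, where Isl1 stood at 358 CPM. Cluster 7, led by Kirrel3 and Pcdh7, held 4 knockout and 8 control cells. Cluster 4 was shallow, with median UMIs of 2881 in 27 knockout and 3496.5 in 26 control cells, and its top genes were haemoglobins and chemokines. Single knockout cells held most of these, 97.8% of Hbb-bs in one and 95.6% of Ccl2 in another. Cluster 4 otherwise had bipolar genes near the levels of cluster 1, with Sox6 at 1488 CPM in cluster 4 and 1726 CPM in cluster 1, and Cntn5 at 7571 CPM in cluster 4 and 8463 CPM in cluster 1. Since the same genes that formed the clusters differed between the libraries, these counts are given to read the ratios by cluster and not as a change of types.

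The type I interferon list had the highest median log2 ratio, 0.82, with 12 of 19 tested genes past the fold upwards and 1 downwards. Ddx60, an antiviral RNA helicase, had 41.6 CPM (74 UMIs) in knockout and 8.14 CPM (10 UMIs) in control members, a ratio of 5.12 (2.63 to 11.1). Ifit1, which binds foreign RNA, had 88.9 CPM in knockout and 23.6 CPM in control members, a ratio of 3.77 (2.52 to 5.81). Bst2, which tethers virus particles to the cell, had 83.9 CPM in knockout and 33.4 CPM in control members, a ratio of 2.51 (1.77 to 3.64). In each of these 3 genes the interval lay above 1.

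After thinning to 2000 UMIs, a Ddx60 UMI was present in 9.90% (6.15 to 14.9) of knockout and 2.72% (0.746 to 6.82) of control members, against 23.3% and 6.12% without thinning. An Ifit1 UMI was present in 11.9% (7.76 to 17.2) of knockout and 3.40% (1.11 to 7.76) of control members after thinning. In rods thinned alike, Ddx60 was seen in 0% of knockout and 0.599% of control cells and Ifit1 in 0.641% of knockout and 4.19% of control cells. The control share of Ifit1 in members was thus no higher than in rods, whereas the knockout share was.

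Among regulators of the response, 3 had ratios with intervals above 1. Irf7, which amplifies interferon production, had 50.1 CPM in knockout and 21.97 CPM in control members, a ratio of 2.28 (1.47 to 3.65). Irf9 and Stat2, parts of the factor that reads the interferon signal, had ratios of 1.49 (1.12 to 2.00) and 1.45 (1.09 to 1.95). Irf9 was higher in 3 of 6 clusters with at least 10 UMIs, with 57 knockout and 7 control UMIs in cluster 2. Isg15, a ubiquitin-like protein, had a ratio of 5.07, but 1 cell held 61.4% of its knockout UMIs. Xaf1 was the gene past the fold downwards, at 12.9 CPM in knockout and 30.1 CPM in control members. A single control cell held 70.3% of those UMIs, and the ratio was 2.99 when the top 5 cells of each library were left out.

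The interferon signal was spread unevenly over the members. Summed over the list, it was 1016 CPM in knockout and 623 CPM in control members, and the median cell had 618 CPM in the knockout and 387 CPM in the control library. By cluster, the summed list was 791 CPM in knockout and 772 CPM in control cells of cluster 1, a ratio of 1.02 (0.873 to 1.20). It was 2178 CPM in knockout and 1047 CPM in control cells of cluster 5, a ratio of 2.08 (1.65 to 2.65), and 1915 CPM in knockout and 549 CPM in control cells of cluster 7. The knockout value was above the control value in 7 of 7 clusters, but by little in cluster 1. In cluster 4, where Sox6 was also high, the ratio was 2.80 (1.98 to 4.04). Of the 158 knockout UMIs of Ifit1, 75 came from the 23 cells of cluster 5.

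In rod bipolar cells 18 of 25 tested interferon genes were past the fold upwards, where 7.75% of all genes were, and 0 downwards, where 5.34% were. In OFF cone bipolar cells 7 of 24 were past it upwards, where 6.45% of all genes were, and 0 downwards, where 3.89% were. The median log2 ratio of the list was 0.82 in ON cone, 1.00 in rod and 0.41 in OFF cone bipolar cells, so the list stood above the median of all genes in all 3 classes. The difference between classes was not tested. For Ddx60 the ratio was 1.17 in rod and 1.17 in OFF cone bipolar cells, and its interval in ON cone bipolar cells lay above both of theirs. For Ifit1 the ratio was 4.90 in rod and 1.66 in OFF cone bipolar cells.

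Genes of antigen presentation and the interferon gamma response had 9 of 21 members past the fold upwards and 0 downwards, with a median log2 ratio of 0.44. Nlrc5, the transactivator of class I genes, had 52.3 CPM in knockout and 22.8 CPM in control members, a ratio of 2.30 (1.49 to 3.64), and Igtp, an immunity-related GTPase, had a ratio of 2.03 (1.30 to 3.23). Psmb8 and Psmb10, subunits of the immunoproteasome, had ratios of 1.99 and 1.93. Iigp1, another immunity-related GTPase, had 59 UMIs in knockout and 3 UMIs in control members, a ratio of 13.6 (4.43 to 67.8). The class I genes themselves were nearer to even: H2-K1 had 189 CPM in knockout and 202 CPM in control members, H2-D1 had 178 CPM in knockout and 163 CPM in control members, and B2m, their common light chain, had 79.4 CPM in knockout and 63.5 CPM in control members. H2-Q7, a non-classical class I gene outside the list, was lower, at 40.5 CPM in knockout and 103 CPM in control members; near-identical copies of H2-Q genes can share reads, so its value is uncertain.

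**Figure D3:**
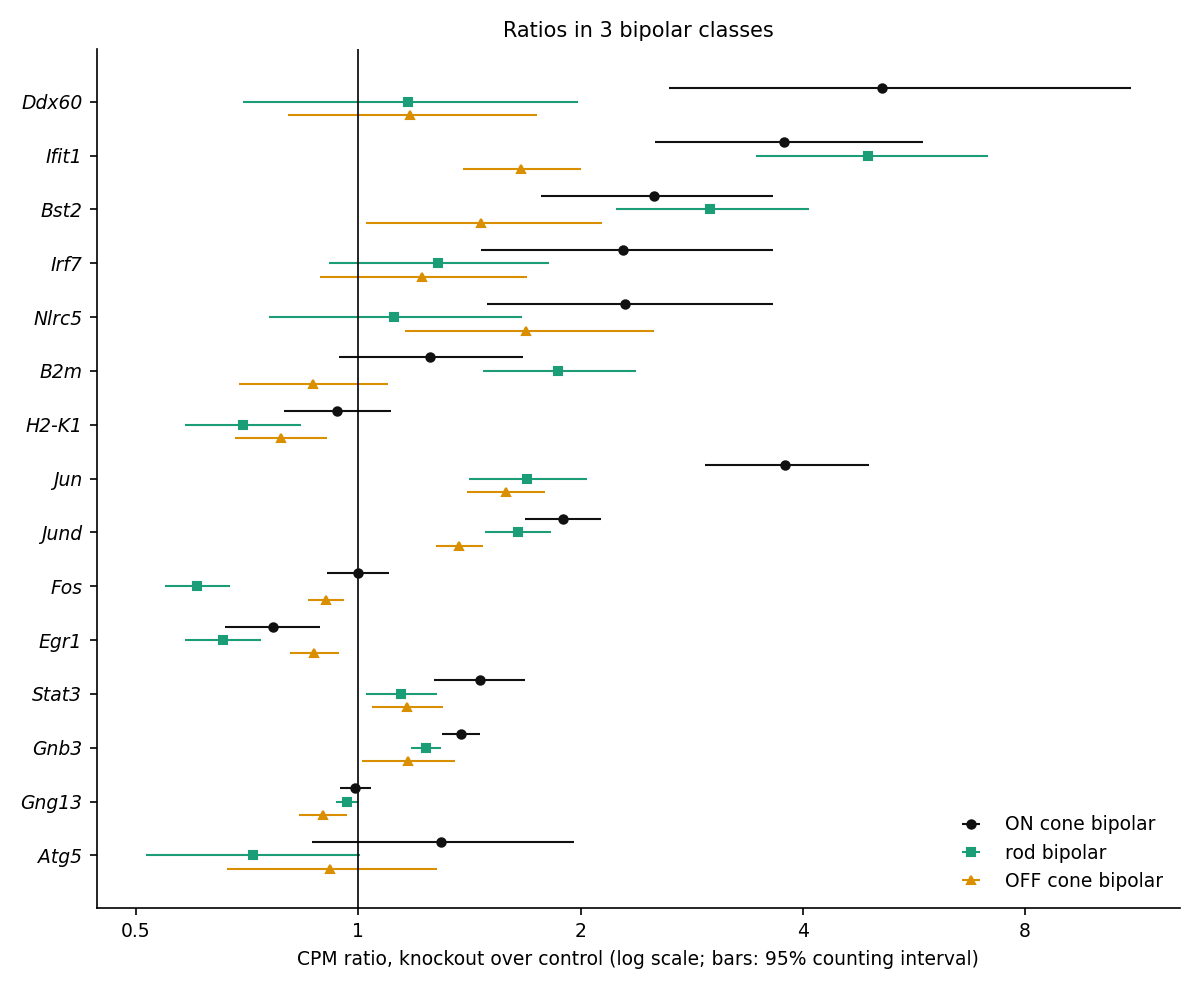
Ratio of CPM, knockout over control, on a log axis for 15 genes in ON cone bipolar (black circles), rod bipolar (green squares) and OFF cone bipolar cells (orange triangles), with bars for the 95% counting interval. Jun (3.78) and Ddx60 (5.12) have higher ratios in ON cone bipolar cells than in the other classes with intervals that do not overlap, Ifit1 is highest in rod bipolar cells (4.90), and Gng13 lies near 1.

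Early response genes had 9 of 17 tested members past the fold upwards and 0 downwards, with a median log2 ratio of 0.58. Jun, a subunit of the transcription factor AP-1, had 228 CPM (405 UMIs) in knockout and 60.2 CPM (74 UMIs) in control members, a ratio of 3.78 (2.95 to 4.92). Jund, its close relative, had 585 CPM in knockout and 309 CPM in control members, a ratio of 1.89 (1.68 to 2.13). Fos, the partner of both in AP-1, had 581 CPM in knockout and 582 CPM in control members, a ratio of 0.999 (0.907 to 1.10). Egr1, a rapidly induced zinc finger gene, had 214 CPM in knockout and 279.95 CPM in control members. Jun and Jund were thus higher, while Fos was equal and Egr1 lower. The count of the list rested in part on cluster 4, since 6 of 16 genes were past the fold upwards without it, and 3 of 15 without clusters 4 and 6.

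No cell held more than 3.95% of the knockout UMIs of Jun or 5.41% of the control ones. After thinning, a Jun UMI was present in 32.2% (25.8 to 39.1) of knockout and 5.44% (2.38 to 10.4) of control members, against 67.3% and 33.3% without thinning. In rods thinned alike the shares were 34.0% of knockout and 21.6% of control cells, so the share in control members lay below that in rods of the same library. Jun was higher in 7 of 7 clusters, with ratios between 2.35 and 8.82, and was 3.56 with the cluster mix held equal. Its ratio was 1.69 (1.41 to 2.04) in rod bipolar and 1.58 (1.40 to 1.79) in OFF cone bipolar cells. Among the 3 bipolar classes the control level was lowest in ON cone bipolar cells, at 60.2 CPM, against 96.3 CPM in rod bipolar and 244 CPM in OFF cone bipolar cells of the control library.

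**Figure D4:**
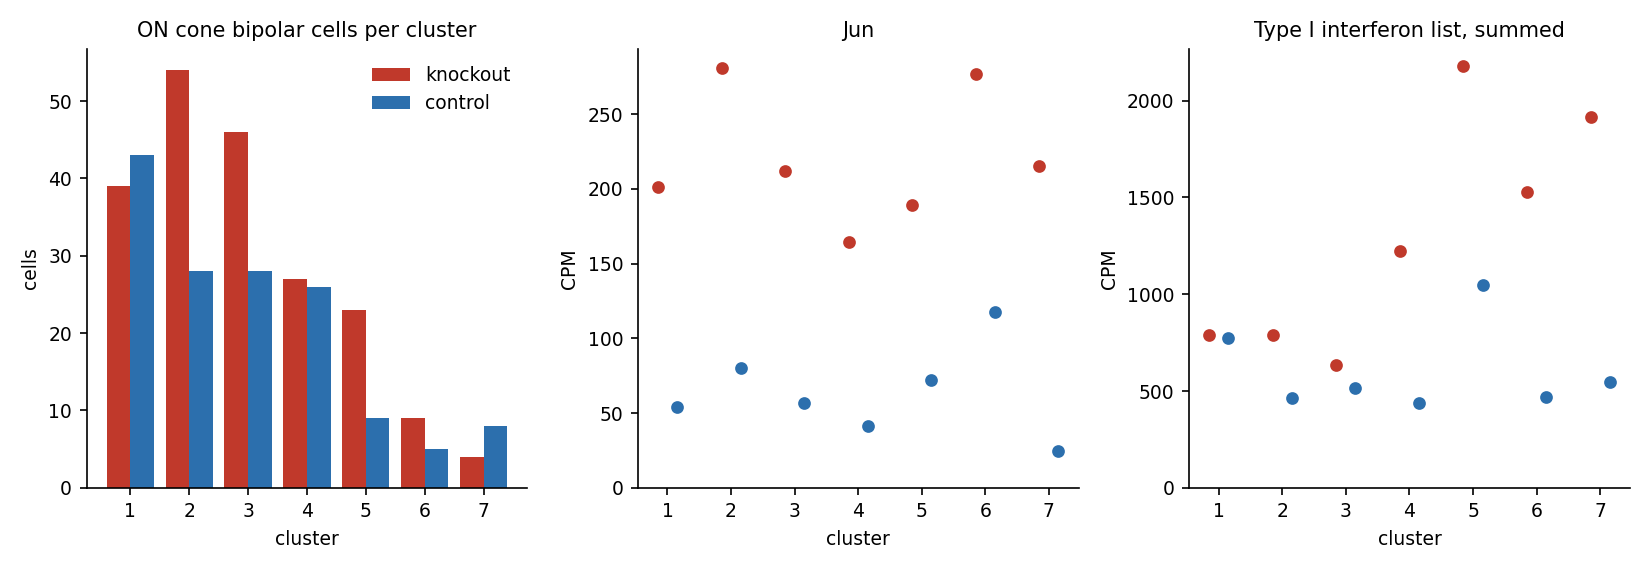
Left, number of knockout (red) and control (blue) cells in the 7 clusters of ON cone bipolar cells; middle and right, CPM of Jun and summed CPM of the type I interferon list in each cluster, 1 point per library. Jun is higher in the knockout cells of all 7 clusters, while the interferon list is near equal in cluster 1 (791 CPM in knockout and 772 CPM in control cells) and furthest apart in CPM in cluster 5 (2178 CPM in knockout and 1047 CPM in control cells) and cluster 7 (1915 CPM in knockout and 549 CPM in control cells).

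Inflammatory genes downstream of NF-kB rested on single cells. Of 13 tested genes, 5 were past the fold upwards and 1 downwards, with a median log2 ratio of 0.24. Ccl2, a monocyte chemokine, had 475 CPM in knockout and 8.14 CPM in control members, Cxcl1 had 196 CPM in knockout and 6.51 CPM in control members, and Cxcl2, which like Cxcl1 attracts neutrophils, had 577 CPM in knockout and 37.4 CPM in control members. However, 1 knockout member of cluster 4, with 16468 UMIs but only 5 UMIs of the ON genes, held 95.6% of Ccl2, 96.6% of Cxcl1 and 95.3% of Cxcl2 in the knockout members. It also held 78.2% of Ier3 and 82.1% of Gadd45b. Without cluster 4, 0 of 8 genes of the list that reached the UMI minimum were past the fold upwards, the median log2 ratio was -0.28 and the Cxcl2 ratio was 0.723.

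Lcn2, the secreted iron-binding protein lipocalin 2, had 418 CPM in knockout and 159 CPM in control members, with 49.6% of the knockout UMIs in the same cell. After thinning, a Lcn2 UMI was present in 30.7% of knockout and 32.0% of control members, below the 57.1% of knockout and 54.5% of control rods. Whether Lcn2 RNA in members came from other cells was not tested. Lcn2 stood at 10459.8 CPM over the other kept knockout cells. Stat3, the transcription factor of the interleukin-6 family, had 344 CPM in knockout and 236 CPM in control members, a ratio of 1.46 (1.27 to 1.68), and was higher in 6 of 7 clusters. Its list had 3 of 15 genes past the fold upwards and 0 downwards, and without cluster 4 this was 1 of 13, with a median log2 ratio of -0.18 against 0.16 with it. Gfap had 3 UMIs in knockout and 2 UMIs in control members.

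Genes of neuronal injury and cell death had 7 of 18 members past the fold upwards and 1 downwards, among them Jun, which is on both lists. Gap43, a growth cone protein, had 42.8 CPM in knockout and 16.3 CPM in control members, a ratio of 2.63 (1.59 to 4.54). Atf3, a stress-induced transcription factor, had 95.7 CPM in knockout and 43.9 CPM in control members, a ratio of 2.18, with 22.9% of the knockout UMIs in the cell rich in Ccl2. Nmnat2, an NAD-producing enzyme that keeps axons alive, was the gene past the fold downwards, at 38.3 CPM in knockout and 71.6 CPM in control members, a ratio of 0.534 (0.384 to 0.742). Bax and Trp53, which act in the intrinsic death pathway, had ratios of 1.16 (0.840 to 1.60) and 1.05 (0.618 to 1.82).

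Atg5, the gene floxed in both groups, had 41.1 CPM (73 UMIs) in knockout and 31.7 CPM (39 UMIs) in control members, a ratio of 1.29 (0.866 to 1.96). Atg5 lies on chromosome 10 at 44268358 to 44364291 (plus strand, mm10), and a 3′ tag need not fall in the deleted exon, so its level does not check the deletion. Of 32 genes of the autophagy machinery 0 were past the fold in either direction, with a median log2 ratio of -0.01. Vamp8, a SNARE protein of autophagosome fusion, had the largest ratio at 1.49 (0.847 to 2.72), and Atg2b, a lipid transfer protein, the smallest at 0.707 (0.460 to 1.08). Among 17 autophagy receptor genes, 0 were past the fold upwards and 1 downwards, Fundc1, a mitochondrial receptor, at 0.652 (0.432 to 0.982). The Fundc1 ratio was 0.691 with the cluster mix held equal, within the fold, and 1.12 with cells thinned to 2000 UMIs.

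Among genes that met the rule for level and spread over cells, Onecut2, a homeobox gene, had the largest ratio, at 90.0 CPM in knockout and 27.7 CPM in control members, a ratio of 3.25 (2.24 to 4.86). A knockout member of cluster 5 that also held 94.6% of the horizontal cell gene Calb1 carried 19.4% of its UMIs. Ociad2, Grhpr, a glyoxylate reductase, and Enho had ratios of 3.09, 2.48 and 2.41, and Tmeff2, Agpat4, a lipid acyltransferase, Csmd3, Crtac1 and B3gat2 had ratios between 2.07 and 2.40. With the cluster mix held equal the ratio was 1.34 for Csmd3, no longer past the fold, and 1.57 for Tmeff2, and with cells thinned to 2000 UMIs it was 0.667 for B3gat2. Syt2, Glra1, Tmeff2 and Csmd3 had higher levels in OFF cone bipolar cells than in members of both libraries, and the part of OFF cone bipolar RNA in their ratios was not tested. Syt2 and Nlrc5 were also among the 12 largest. The 9 genes from Onecut2 to B3gat2 were in none of the 25 lists.

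At the other end, Kirrel3, an adhesion protein that leads cluster 7, had 178 CPM in knockout and 682 CPM in control members, a ratio of 0.261 (0.228 to 0.297). The Kirrel3 ratio was 0.495 without the top 5 cells of each library and 0.534 with the cluster mix held equal. Chrna7, the alpha-7 nicotinic receptor, had 41.1 CPM in knockout and 96.0 CPM in control members, a ratio of 0.428 (0.315 to 0.578), and its rod bipolar ratio was 0.438. Gngt1, the gamma subunit of rod transducin, had 329.8 CPM in knockout and 728 CPM in control members, beside the lower rod marker sum. Tsix, the antisense partner of Xist, had a ratio of 0.421, and reads of the pair may not be told apart since no source here says whether strand was used in counting. The remaining 8 of the 12 smallest were H2-Q7, Sgcz, St6galnac5, Fndc1, Man1a, Gk, Prtg and Mpdz, with ratios between 0.395 and 0.492. Sgcz and Man1a were among the leading genes of cluster 1.

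Xist, expressed from the inactive X chromosome of females, had 556 CPM in knockout and 1115 CPM in control members, a ratio of 0.499 (0.459 to 0.542). The Y-linked genes Ddx3y and Eif2s3y had 70.9 and 128 CPM in knockout members and 48.0 and 85.5 CPM in control members. Uty and Kdm5d, also Y-linked, had ratios of 1.21 (0.965 to 1.53) and 0.977 (0.660 to 1.46), so the Y-linked genes did not all differ alike. The Xist ratio was 0.776 in rod bipolar and 0.716 in OFF cone bipolar cells, while the median log2 ratio of the 5 sex-linked genes was -0.04 in rod bipolar cells. Sex, genotype and drug cannot be told apart in these 2 libraries.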

How the data were processed

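The deposited values are raw counts of UMIs for each gene in each barcode. Per the file headers the authors used Cell Ranger 6.0.0, on 10x Genomics 3′ libraries of papain-dissociated retinas. The submitters' processing notes name mm10 and Seurat 5.2.1. The knockout library held 50676223 UMIs in 5229 barcodes and the control library 43669961 in 8690, and 15 barcodes, none of a member, occurred in both. Of 32285 features, 40 repeated a symbol, and the first was used. Mx1 and Mx2 are not among the features. For coordinates, 32158 features matched GENCODE vM21 (GRCm38) by identifier.

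Members and gene lists were chosen with earlier results of these data known. The other classes were cut by thresholds set after the data were seen: rod bipolar cells had at least 3 UMIs of the ON genes and 3 of Prkca, and OFF cone bipolar cells at least 2 of Grik1 and more than of the ON genes, at most 1 rod bipolar UMI and at least 1 UMI of a set of bipolar genes that included Vsx1, Neto1 and Tacr3. Rods had at least 2% of UMIs from rod markers.

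Within each class and library UMIs were added up and scaled to CPM. A ratio is knockout over control CPM with an exact conditional binomial 95% interval, shares have exact (Clopper-Pearson) intervals, and log2 ratios had 0.5 UMI added. Genes with at least 50 UMIs were counted past 1.5-fold. Members were clustered on 157 identity genes with 10 principal components, 15 neighbours and resolution 1.0 (scanpy 1.11.5, seed 1). With the cluster mix held equal, ratios are Mantel-Haenszel ratios over clusters.

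Named genes had at least 100 UMIs, a UMI in at least 10% of members of the library where they were higher and a CPM there no lower than in its other cells. Predicted, mitochondrial, ribosomal, haemoglobin, crystallin and selection genes were left out. The 12 largest and 12 smallest ratios were named, with the extremes and the 2 highest CPM of each list, the given markers and Atg5, Gfap, Lcn2, B2m, Stat3, Xist and Ddx3y. Between classes, the 12 genes most above and the 6 most below both other classes in the library with the smaller ratio were named. Some genes that the rule names are not reported here. Other genes were named after their values were seen. Scrublet called 5 of 4662 knockout and 0 of 8274 control cells, so it has not worked here, and no doublet was removed. Alternatives included TMM scaling (edgeR 4.0.16, R 4.3.3). Scripts ran on pandas 2.3.3, scipy 1.17.1 and numpy 2.4.6 under Python 3.11.15, and ratios were tested on simulated data.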

Additional observations from a re-analysis of the deposited data

How the results depend on the processing

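Shares of members moved with the denominator or cut: 3.39% in knockout and 1.22% in control in the deeper cells alone, 3.07% and 1.35% with no rod bipolar UMI, 5.74% and 4.95% of cells with at least 2000 UMIs, and 27.9% and 31.3% of bipolar cells. Counts past the fold, 581 higher and 409 lower, became 223 and 196 with cells thinned to 2000 UMIs, 1148 and 901 at a minimum of 20 UMIs per gene, 241 and 192 at 100, and 4489 and 3070 with no minimum, as low counts scatter more. Leaving out the top 5 cells of each gene gave 933 higher. Median log2 ratios of lists changed sign in some settings, of which some are given here. With the cell mix held equal, bipolar transcription factors went from -0.082 to 0.069 and cone bipolar type markers from 0.070 to -0.090. Heat shock genes went from -0.012 to 0.27 with cells thinned. Further changes in lists whose medians lay close to even are left out. Inhibitory receptors became -0.012 (mean of per-cell CPM) and -0.041 (cell mix held equal). Ionotropic glutamate receptors became -0.13 (per-cell mean), -0.068 (thinned), -0.051 (without clusters 4 and 6) and -0.065 (mix held equal). Voltage-gated channels became 0.039 (per-cell mean). STAT3 signalling became -0.017 at 20 UMIs or no minimum, -0.18 without cluster 4 and -0.066 without clusters 4 and 6. NF-kB became -0.28, -0.25 and -0.024 without cluster 4, clusters 4 and 6, and the top 5 cells. Of named genes, B3gat2 became 0.667 and Fundc1 1.12 when thinned. Without cluster 4, clusters 4 and 6, and the top 5 cells, Cxcl2 became 0.723, 0.728 and 0.719, and Gadd45b 0.866, 0.932 and 0.903. Ier3 became 0.971 without cluster 4 and 0.952 without the top 5 cells, Lif 0.942 without clusters 4 and 6, and Xaf1 2.99 without the top 5 cells. In each of these the cause was not tested, except that the values without cluster 4 or the top cells leave out the cells named in the report. The alternatives that hold the cell mix equal, drop clusters 4 or 4 and 6, or drop members rich in other cells' markers were chosen after seeing the data. Over the alternatives the ratio stayed between 3.37 and 9.10 for Jun, 3.19 and 5.70 for Ifit1, and 3.20 and 9.46 for Ddx60. No paired analysis was possible because each group has 1 library.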

Other observations

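Energy metabolism of ON cone bipolar cells differed little between the libraries. Of 75 nuclear genes of oxidative phosphorylation and 13 mitochondrial ones, 0 were past 1.5-fold in either direction, with median log2 ratios of 0.11 and 0.10. Of 26 glycolysis genes, 1 was past the fold upwards, Ldhb, a lactate dehydrogenase subunit, at 34.9 CPM in knockout and 18.7 CPM in control members, and 0 downwards. Heat shock genes had 0 of 17 past the fold in either direction. Of 18 circadian clock genes, 0 were past it upwards and 1 downwards, Per3, at 53.5 CPM in knockout and 94.4 CPM in control members, a ratio of 0.566, and it was lower in all 5 clusters with at least 10 UMIs.

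Of 18 genes of oxidative stress and metal binding, 3 were past the fold upwards and 0 downwards. Mt1, a metallothionein, had 603 CPM in knockout and 281 CPM in control members, and its ratio of 2.15 was 1.35 without the top 5 cells. Mt2 had 253 CPM in knockout and 91.96 CPM in control members, with 34.97% of the knockout UMIs in the cell rich in Ccl2. Of 21 genes of the unfolded protein and integrated stress response, 3 were past the fold upwards and 1 downwards, and 1 upwards without members rich in markers of other classes. Nupr1, a stress-induced nuclear protein, had 50 UMIs in knockout and 6 UMIs in control members. Edn2, which encodes endothelin 2, had 0.563 CPM in knockout and 11.4 CPM in control members. These levels rest on few UMIs, below the minimum of 50 over both libraries, so Edn2 was not among the genes tested. A single knockout member held 97.8% of the UMIs of Hbb-bs, a haemoglobin gene.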
